A study of Mus musculus with 10 samples.

Results

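The collagen chain genes are the protein-coding genes whose symbol has the form Col, a type number, the letter a and a chain number. They were picked from the deposited table by GENCODE M21 symbol, with no use of measured values. The rule found 44 genes of 47333 in the table. Of these, 35 had enough counts for the comparison of genotypes and 9 did not, so every count of tested genes below leaves those 9 out.

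Collagens are the main structural proteins of connective tissue. Their chains are built on a repeat in which glycine recurs at a fixed short interval, and chains wind around each other into a rope-like helix. Fibrillar collagens form the cables that carry tension in airway walls, vessels and septa. Collagen IV forms the sheet of the basement membrane, which in the alveolus lies between epithelium and capillary. The remaining classes decorate fibrils, build beaded filaments around cells, anchor epithelium or sit in cell membranes. In the lung the fibrillar chains are made largely by fibroblasts and smooth muscle, and the collagen IV chains by endothelium and epithelium.

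The tissue was the right middle lobe of the lung. All animals were C57BL/6J mice, 12 weeks old and naïve, with no treatment given. The 5 KO mice (1 male and 4 females) had lost Bpifb1, the gene of a secreted airway protein, and the 5 WT mice (2 males and 3 females) carried it. The design asks which genes change their expression when Bpifb1 is lost. The labels do not say how the gene was inactivated. Mice are numbered within each genotype, KO 1 to KO 5 and WT 1 to WT 5, and the numbers pair no animals. The labels name no litter or batch, so the p-values measure the spread between these 10 samples.

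Libraries held 21357424 to 28321294 counts. Values are CPM, counts per 1000000 of the scaled library total. Bpifb1 measured 0.433, 0.924, 0.232, 0.217 and 1.26 CPM in KO 1 to KO 5, and 78.7, 41.2, 79.6, 28.1 and 71.1 CPM in WT 1 to WT 5. The groups did not overlap, and the log2 fold change was -6.55 (SE 0.55) with an edgeR adjusted p of 0.0275. KO 5 is labelled female, yet it had 1.78 CPM of Xist, where the other 6 females had 273.7 to 407 CPM, and 0 counts of 4 Y-linked genes. Fold changes that move by over 1.5 times without this mouse are counted below, and the main ones are given without it. The tissue label was checked with alveolar type 2 markers, which summed to 20050 to 25060 CPM per mouse.

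The gene structure itself carries the glycine repeat, and a short exon of each of the 3 most abundant fibrillar genes shows it. Each stretch is the first coding exon of 54 bases that begins with a glycine codon and keeps one at each following repeat of 9 bases, printed 5′ to 3′ on the coding strand from GENCODE M21 (GRCm38). Capitals mark the 6 glycine codons at the repeat positions. Near its end the Col1a1 stretch holds a further glycine codon, ggt, outside these positions.
Col1a1: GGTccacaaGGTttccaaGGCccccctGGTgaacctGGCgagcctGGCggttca
Col1a2: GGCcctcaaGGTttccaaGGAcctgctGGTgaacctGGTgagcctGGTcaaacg
Col3a1: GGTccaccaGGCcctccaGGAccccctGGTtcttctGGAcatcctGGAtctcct
They lie at chr11:94939904-94939957 and chr6:4515481-4515534, each coding exon 8, and at chr1:45325360-45325413, coding exon 6, all on the plus strand. Over the 44 genes, 469 of 2000 coding exons (23.4%) were exactly 54 bases long, against 0.441% of the coding exons of 21899 other protein-coding genes. A length divisible by 9 bases, the size of a repeat unit, was found in 61.9% of collagen coding exons and 14% of the others. The classes differed in this. Col1a1 had 21 exons of 54 bases among 51, Col1a2 24 among 52 and Col3a1 24 among 51. Col4a1, the leading basement membrane gene, had 2 among 52, and Col8a1, Col8a2 and Col10a1 had 0 among 2 each.

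Levels between genes were compared as CPM per kilobase, with the exon length of the principal transcript of each gene. Col3a1, the chain of the thin fibrils of elastic tissues, stood highest at a mean of 137 CPM per kilobase over the 10 mice. Next came Col1a2 (109), Col4a1 (108), Col4a2 (94.4), Col6a1 (85.4) and Col1a1 (81.5). Then followed Col6a2 (68.7), Col4a3 (29.5), Col13a1 (28.2) and Col23a1 (19.7). The order of near neighbours depends on the length used. With the union of all annotated exons Col4a1 stood first at 95.4, and Col3a1 came to 77.8 and Col1a2 to 46.8 CPM per kilobase. The mice overlapped for Col1a2 and Col4a1, so these neighbours did not differ beyond their spread. By class, the fibrillar genes held 39.4% of the summed collagen levels, the basement membrane genes 30% and the beaded filament genes 18.9%. The order of the leading classes also turned with the length used, since the union of exons gave 32.5% for the fibrillar and 36.8% for the basement membrane genes, with 18.4% for the beaded filament genes. All 44 genes together took 0.544% ± 0.0566 of the counts in KO and 0.503% ± 0.0455 in WT lungs (SD, n = 5 each), and the groups overlapped (0.488% to 0.634% and 0.426% to 0.536%).

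**Figure D1:**
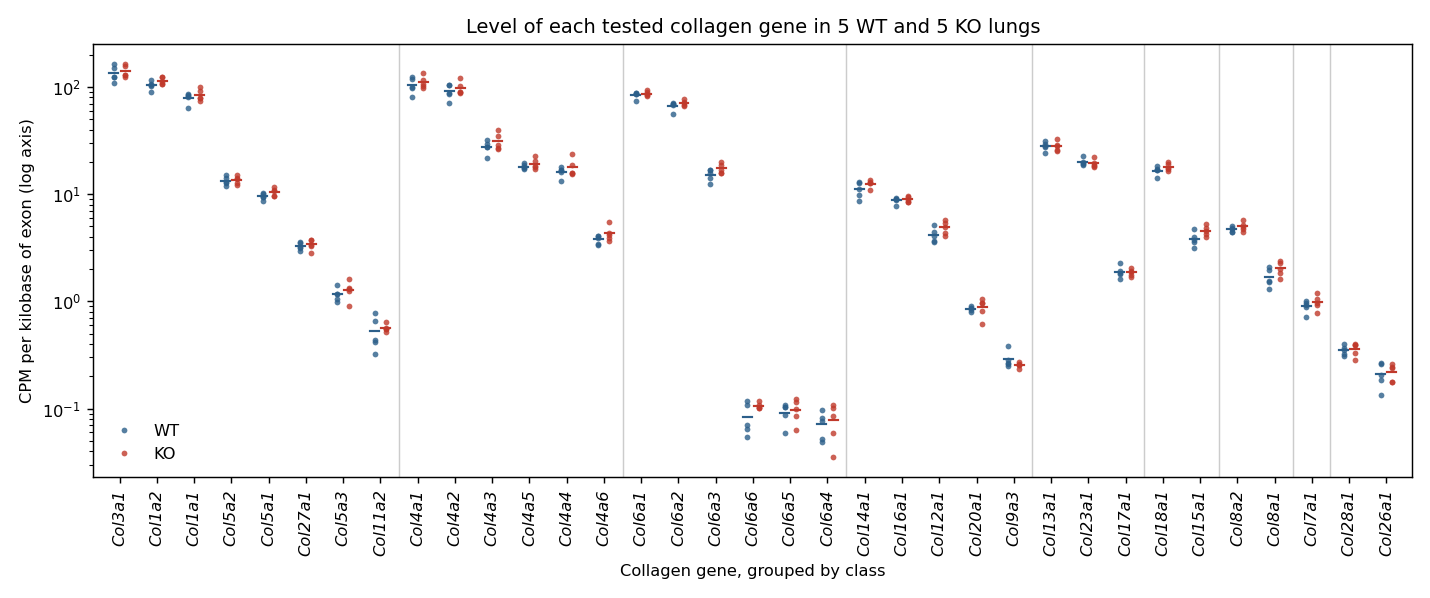
CPM per kilobase of exon on a log axis for the 35 tested collagen genes, grouped by class. Points are mice (5 WT in blue, 5 KO in red) and short lines are group means. Col3a1 is highest at a mean of 137, the beaded filament genes Col6a4, Col6a5 and Col6a6 lie near 0.1, and the genotypes overlap in each gene.

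No tested collagen gene passed between KO and WT lungs. By edgeR's quasi-likelihood test, with sex in the model and Benjamini-Hochberg adjustment, 0 of 35 had an adjusted p under 0.05, where 4 of 18024 tested genes (0.0222%) did. Under 0.1 it was again 0 of 35, beside 0.316% of all tested genes. The DESeq2 Wald test and limma-voom also called 0 of them. At an unadjusted p under 0.05 stood 3 of the 35, Col12a1, Col15a1 and Col8a1 (8.57%), a smaller share than the 17.0% of all tested genes. In 0 of the 35 genes did the CPM ranges of the genotypes separate, as they did in 1.88% of all tested genes.

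The fitted differences were small and leaned one way. The log2 fold change (also written log2 ratio) of KO over WT was above 0 in 32 of 35 tested collagen genes, against 49.3% of all tested genes, and its median was 0.10 beside -0.003 for all tested genes. The lean rested in part on KO 5. That mouse was the highest of the 10 in 19 of the 35 genes, where it was highest in 11.6% of all tested genes. WT 2, a male, was the lowest in 15 of the 35, where it was lowest in 12.1% of all tested genes. Without KO 5 the count was 25 of 35 and the median 0.04. The fitted value was then lower in 29 of the 35 genes, and in 20 of them it shrank by over 1.5 times or passed below 0. Standard errors of the 35 fold changes ran from 0.05 to 0.34 with a median of 0.10, so a typical difference was about as large as its error. In a piece of whole lung, fewer cells of a type and less RNA per cell cannot be told apart.

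**Figure D2:**
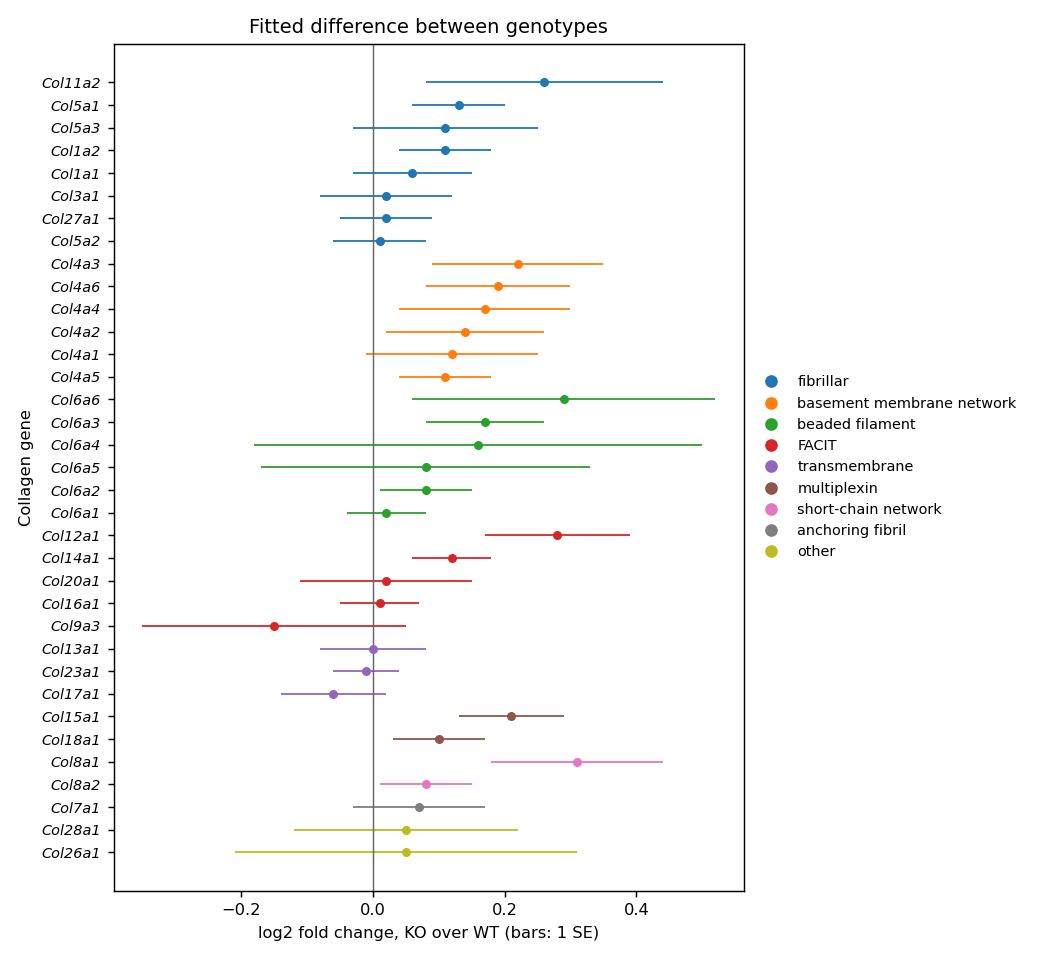
Fitted log2 fold change of KO over WT (x axis) for the 35 tested collagen genes (y axis), coloured by class, with bars of 1 SE. Most points lie right of 0, with 32 of 35 above it, and none passes an edgeR adjusted p under 0.05.

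Of the 11 fibrillar genes 8 were tested, and all 8 had a fitted log2 fold change above 0, with a median of 0.085. Col1a1 (ENSMUSG00000001506; chromosome 11, 94936224 to 94953042) and Col1a2 (ENSMUSG00000029661; chromosome 6, 4504814 to 4541544) encode the chains of collagen I, the main load-bearing fibril. Col1a1 measured 441.7, 465.5, 539.6, 466.1 and 586.3 CPM in KO 1 to KO 5 and 506, 374.1, 496.8, 474 and 484.6 CPM in WT 1 to WT 5. KO 5 was highest and WT 2 lowest, and the other 8 mice lay between 441.7 and 539.6 CPM with the genotypes mixed. Its log2 fold change was 0.06 (SE 0.09, adjusted p 0.76 by edgeR), and without KO 5 it was 0.01. Col1a2 averaged 609.4 ± 47.6 CPM in KO and 554.5 ± 49.9 CPM in WT (SD, n = 5 each), a fitted log2 ratio of 0.11 (SE 0.07, adjusted p 0.418 by edgeR).

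Col3a1 (ENSMUSG00000026043; chromosome 1, 45311538 to 45349706) measured 722.5, 720, 867.8, 687.5 and 905.3 CPM in KO 1 to KO 5. In WT 1 to WT 5 it measured 917.7, 611.2, 688.2, 689.2 and 829.5 CPM. A WT mouse was highest and a WT mouse lowest, and the groups overlapped throughout. For KO over WT the log2 ratio was 0.02 (SE 0.10, adjusted p 0.938 by edgeR), and its sign turned when single mice were left out. The fibril-regulating collagen V genes gave 0.13 for Col5a1 (SE 0.07, adjusted p 0.345 by edgeR), 0.01 for Col5a2 (SE 0.07) and 0.11 for Col5a3 (SE 0.14). Col27a1 measured 25.9 ± 3.0 and 24.9 ± 1.92 CPM in KO and WT (SD, n = 5 each). Col11a2, at 1.74 to 4.24 CPM over WT mice and 2.78 to 3.48 CPM over KO mice, gave 0.26 (SE 0.18, adjusted p 0.479 by edgeR). The summed CPM of 7 fibroblast markers, given beside these genes, ran from 2774 to 3219 in KO and from 2956 to 3262 in WT mice. It was lowest in KO 5, the mouse highest in Col1a1. Inmt made up much of the sum, with 1287 CPM in KO 5 and 1449 to 1844 CPM in the other mice. Among the KO mice, KO 5 was lowest in the marker Pdgfra (335.7 CPM) and highest in the marker Pi16 (47.6 CPM). The sum of 6 smooth muscle markers was 891.7 to 1105 CPM in KO and 899.6 to 1241 CPM in WT mice, and that of 5 pericyte markers 306.3 to 386.9 and 287.8 to 361.1 CPM. KO 5 had the highest smooth muscle sum of the KO mice, 1105 CPM, and a pericyte sum of 373.5 CPM. The part of these markers in the values was not tested.

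The 3 genes at an unadjusted p under 0.05 come from different classes, and each was higher in the KO mean. Col12a1 (ENSMUSG00000032332; chromosome 9, 79598991 to 79718831) belongs to the fibril-associated collagens with interrupted helices, the FACIT class, which bind to fibril surfaces. It measured 62.5, 57.3, 50.5, 47.1 and 66.8 CPM in KO 1 to KO 5, and 46.4, 42.4, 58.8, 50.8 and 40.9 CPM in WT 1 to WT 5. KO 1 and KO 5 lay above all WT mice, while KO 3 and KO 4 lay among them. Fitted, this gave a log2 ratio of 0.28 (SE 0.11, adjusted p 0.252 by edgeR).

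Col15a1 (ENSMUSG00000028339; chromosome 4, 47208161 to 47313167) is a multiplexin, a collagen of the zone where basement membranes meet fibrils. It measured 20.4, 24.8, 23.6, 22.1 and 27.5 CPM in KO 1 to KO 5, and 19.5, 16.1, 18.3, 20.5 and 24.3 CPM in WT 1 to WT 5. The lowest KO mouse and the lowest WT mice include all 3 males. On the log2 scale KO over WT was 0.21 (SE 0.08, adjusted p 0.226 by edgeR). Its partner in the class, Col18a1, the source of the fragment endostatin, measured 86.6 ± 7.22 in KO and 79.5 ± 7.41 CPM in WT (SD, n = 5 each; fitted log2 ratio 0.10, SE 0.07, adjusted p 0.493 by edgeR).

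Col8a1 (ENSMUSG00000068196; chromosome 16, 57624258 to 57754737) encodes a short-chain collagen of vessel walls that forms open networks. It measured 11.8, 12.2, 10.3, 9.46 and 8.30 CPM in KO 1 to KO 5, and 6.63, 7.91, 10.65, 10.03 and 7.80 CPM in WT 1 to WT 5. KO 5, the mouse highest in most collagens, was the lowest KO mouse here. The fitted log2 ratio was 0.31 (SE 0.13, adjusted p 0.264 by edgeR), the largest among the 35 tested genes. Col8a2, its partner chain, gave 0.08 (SE 0.07, adjusted p 0.624 by edgeR), and 0.03 without KO 5. Which genes stood at an unadjusted p under 0.05 changed with the mice kept. Without KO 5 it was Col8a1 alone, without KO 1 Col11a2 alone, without WT 1 Col14a1 alone and without WT 2 Col15a1 alone. Without KO 4 and without WT 3 there were 5 such genes each.

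The 6 collagen IV genes were all tested, and all had a fitted log2 fold change above 0, from 0.11 (Col4a5) to 0.22 (Col4a3), with a median of 0.153 and no call. Col4a1 (ENSMUSG00000031502; chromosome 8, 11198423 to 11312826) and Col4a2 (ENSMUSG00000031503; chromosome 8, 11312805 to 11449287) encode the chains found in nearly every basement membrane. Col4a1 measured 764.1, 678.3, 697.8, 646.5 and 898.6 CPM in KO 1 to KO 5 and 527.9, 645.3, 783.7, 816.9 and 659.3 CPM in WT 1 to WT 5. KO 5 was highest and WT 1 lowest, with the other mice of both genotypes mixed between them. For KO over WT the log2 ratio was 0.12 (SE 0.13, adjusted p 0.672 by edgeR) for Col4a1 and 0.14 (SE 0.12, adjusted p 0.605 by edgeR) for Col4a2. Without KO 5 these were 0.04 and 0.05, and without WT 1 they were 0.02 and 0.05.

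Col4a3 (ENSMUSG00000079465; chromosome 1, 82586921 to 82722059) and Col4a4 (ENSMUSG00000067158; chromosome 1, 82448423 to 82586849) encode the specialised chains of the alveolar and glomerular basement membrane. Col4a3 measured 300.0, 247.4, 229, 225.1 and 341.6 CPM in KO 1 to KO 5 and 184.9, 234.3, 276.4, 251.6 and 235.9 CPM in WT 1 to WT 5. The pattern was that of Col4a1, with KO 5 highest and WT 1 lowest. Fitted, this gave a log2 ratio of 0.22 (SE 0.13, adjusted p 0.406 by edgeR), and 0.11 without KO 5. Part of Col4a3, 5.6% of its exon bases, overlaps a gene on the opposite strand, and whether the counting used strand is not given in the sources used here. The X-linked genes Col4a5 and Col4a6 gave 0.11 (SE 0.07, adjusted p 0.482 by edgeR) and 0.19 (SE 0.11, adjusted p 0.408 by edgeR), which became 0.04 and 0.09 without KO 5. Col4a4 went from 0.17 (SE 0.13, adjusted p 0.522 by edgeR) to 0.05. KO 5 was the highest mouse in 6 of the 6 genes and WT 1 the lowest in 5 of them. Endothelial markers summed to 2460 CPM in KO 5, the lowest of the KO mice (2460 to 2520). They summed to 1997 CPM in WT 1, the lowest of the WT mice (1997 to 2600), with WT 2 close to it at 2002 CPM. Alveolar type 1 markers summed to 3355 CPM in KO 5 (KO mice 3253 to 3634) and to 3915 CPM in WT 1 (WT mice 3566 to 4367). The part of these markers in the values was not tested.

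**Figure D3:**
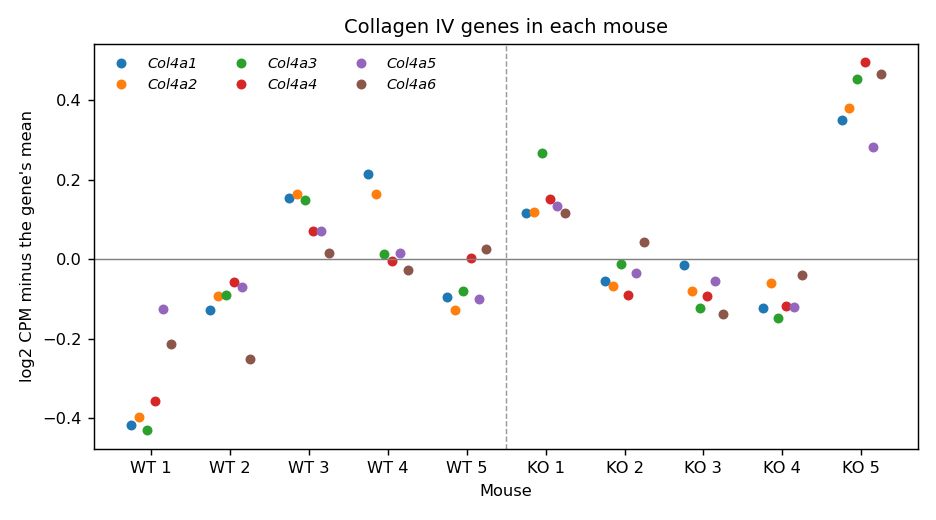
log2 CPM of each of the 6 collagen IV genes minus that gene's mean over the 10 mice (y axis), for each mouse (x axis), with WT left and KO right of the dashed line. KO 5 lies highest in all 6 genes, WT 1 lowest in 5 of 6, and the other mice of both genotypes overlap.

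The collagen IV genes lie in head-to-head pairs, but the covariation over the mice was not limited to pairs. In GENCODE M21 the starts of Col4a1 and Col4a2 overlap by 22 bases, Col4a3 and Col4a4 are 71 bases apart, and Col4a5 and Col4a6 are 1308 bases apart. The whole interval from Col4a4 to Col4a3, shown because both genes start at its ends, holds no annotated exon. It is chr1:82586850-82586920, printed from the RefSeq promoter table (GRCm38.p6) on the minus strand, 5′ to 3′ toward Col4a4.
Col4a4 to Col4a3: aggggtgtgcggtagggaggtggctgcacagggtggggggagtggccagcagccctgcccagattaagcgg
It was searched on both strands for common promoter motifs, whose matches would stand in capitals, and held 0 of each. The box bound by NF-Y, spelled CCAAT, is found in the 71 bases before the start of 13.3% of 32851 promoters in that table. The core of the box bound by Sp1, spelled GGGCGG, is found in that window in 20.7% of promoters. A TATA box, spelled TATAAA, is found there in 4.41%. No match says only that these letters are not in this window.

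Pearson's r of log2 CPM over the 10 mice was 0.98 for Col4a1 and Col4a2 (permutation p 1.4e-04, adjusted over 7 pairs 4.9e-04), and Spearman's rho was 0.89 (permutation p 0.00126, adjusted 0.00441). It was 0.96 for Col4a3 and Col4a4 (permutation p 2.0e-05, adjusted 1.4e-04), with a rho of 0.94 (permutation p 1.4e-04, adjusted 9.8e-04). Without KO 5 and WT 1 these became 0.95 and 0.92, and in the 7 females 0.98 for each (exact permutation p 0.00476 and 0.00635, adjusted 0.0148 each). For the more distant pair, Col4a5 and Col4a6, r was 0.85 (permutation p 0.00608, adjusted 0.00851) and rho 0.72 (permutation p 0.0239, adjusted 0.0419). The r fell to 0.42 without KO 1 and KO 5. In the 7 females, which include KO 5, it was 0.90 (exact permutation p 0.0663, adjusted 0.0928). This value too depended on which mice were left out. After the mean of each genotype was removed, r was 0.98, 0.96 and 0.84 for these pairs (exact permutation within genotype, p 0.0016, 3.5e-04 and 0.012, adjusted over 7 pairs 0.00373, 0.00243 and 0.0168). Collagen IV genes of different pairs, which lie on different chromosomes, also varied together. Over those 12 combinations r ran from 0.76 to 0.94 (permutation p up to 0.0088, also after adjustment over the 12) and rho from 0.59 to 0.95 (permutation p up to 0.0812, also after adjustment). Col4a3 and Col4a5, for example, gave 0.94. Without KO 5 and WT 1 the 12 values of r ran from 0.43 to 0.97. Whether r differed between neighbouring and other combinations was not tested.

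The 4 other pairs were compared in the same way. Col1a1 and Col1a2, on different chromosomes but joined in collagen I, gave r 0.91 (permutation p 0.0014, adjusted 0.00327) and rho 0.72 (permutation p 0.0232, adjusted 0.0419), with an r of 0.70 without KO 5 and WT 2. Col6a1 and Col6a2, in tandem on chromosome 10, gave r 0.93 (permutation p 0.00314, adjusted 0.00549) and rho 0.64 (permutation p 0.0543, adjusted 0.076). Without KO 3 and WT 2 the r was 0.47. In the 7 females, which include KO 3, it was 0.93 (exact permutation p 0.00198, adjusted 0.0139). With genotype means removed it was 0.93 (exact permutation within genotype, p 0.0103, adjusted 0.0168). The value thus depended on which mice were left out. Col3a1 and Col5a2, neighbours on chromosome 1, gave r 0.55 (permutation p 0.0995, adjusted 0.116) and rho 0.52 (permutation p 0.13, adjusted 0.152), and r 0.67 without KO 5 and WT 1. The scarce neighbours Col6a5 and Col6a6 gave r -0.17 (permutation p 0.682, adjusted 0.682) and rho -0.19 (permutation p 0.612, adjusted 0.612). Points of a pair share their library, its depth and its tissue piece.

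Collagen VI forms beaded filaments that link cells to the matrix around them. Its main chains were among the most abundant collagens and overlapped between the genotypes. Col6a1 (ENSMUSG00000001119; chromosome 10, 76708792 to 76726168) measured 342, 334.7, 380.7, 348.7 and 368.5 CPM in KO 1 to KO 5 and 357.9, 302.6, 355.1, 355.1 and 357 CPM in WT 1 to WT 5. Apart from a low WT 2, the WT mice differed by less than 3 CPM and lay within the KO range. On the log2 scale KO over WT was 0.02 (SE 0.06, adjusted p 0.89 by edgeR) for Col6a1, 0.08 (SE 0.07, adjusted p 0.601 by edgeR) for Col6a2 and 0.17 (SE 0.09, adjusted p 0.345 by edgeR) for Col6a3. The long alternative chains Col6a4, Col6a5 and Col6a6 reached 0.260 to 1.146 CPM in the 10 mice.

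Of 3 tested genes of transmembrane collagens, which span the cell membrane, 1 had a fitted log2 fold change above 0, and the class median was -0.009. Whether the class differs from the others was not tested. Col13a1, found at cell contacts and nerve-muscle junctions, measured 89.0 ± 9.83 and 89.0 ± 8.05 CPM in KO and WT (SD, n = 5 each), with a fitted log2 ratio of 0 (SE 0.08, adjusted p 0.996 by edgeR). Col23a1 measured 109.8 ± 9.03 and 112.9 ± 8.41 CPM (SD, n = 5 each; fitted log2 ratio -0.01, SE 0.05, adjusted p 0.955 by edgeR). Col17a1, a component of hemidesmosomes, gave -0.06 (SE 0.08, adjusted p 0.739 by edgeR). Col7a1, the anchoring fibril collagen below stratified epithelium, measured 9.11 ± 1.37 and 8.34 ± 1.09 CPM (SD, n = 5 each; fitted log2 ratio 0.07, SE 0.10, adjusted p 0.76 by edgeR), and without KO 5 the ratio was 0.01. Of the remaining genes Col14a1 gave 0.12 (SE 0.06, adjusted p 0.327 by edgeR), Col16a1 0.01 (SE 0.06), Col20a1 0.02 (SE 0.13) and Col9a3 -0.15 (SE 0.20). Col28a1 and Col26a1 gave 0.05 each (SE 0.17 and 0.26).

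The 9 genes that were not tested are Col2a1, Col9a1, Col9a2, Col10a1 and Col11a1, which are collagens of cartilage, and Col19a1, Col22a1, Col24a1 and Col25a1. Their highest count in any mouse ran from 2 to 25, where 3 counts were taken as the floor of detection. The cartilage collagens were not spread evenly over the mice. Col2a1, the main fibril of cartilage, had 22 counts in KO 5 and 19 in WT 3, and 0 to 2 in the other 8 mice. Col10a1, of hypertrophic cartilage, had 25 in KO 5 and 11 in WT 3, and 1 to 4 elsewhere. Col9a2 had 23 and 14 counts in these mice and 0 to 7 elsewhere, and Col11a1 12 and 8 counts and 1 to 7 elsewhere, so that in Col11a1 WT 3 lay next to KO 2 with 7 counts. Col9a3, another cartilage collagen that was tested, had 29 counts in WT 3 and 18 in KO 5, with 16 to 23 elsewhere, so it was not raised in KO 5. Col11a2, also tested, had 88 counts in KO 5 and 89 in WT 3, but 89 in WT 2 as well, with 40 to 82 elsewhere. Summed over the 5 genes, KO 5 had 84 counts and WT 3 had 52, against 3 to 13 in the others. The sum therefore sets apart 1 mouse of each genotype and no group. Col22a1, singled out after its values were seen, had more counts, with 7 to 14 in KO and 4 to 8 in WT mice, and overlapped between them.

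Cartilage markers were given beside these genes. Acan, the aggrecan core protein of cartilage, had 26 counts in KO 5, 9 in WT 3 and 0 in the other 8 mice. Cnmd had 5 and 7 counts in these mice and 0 to 2 elsewhere, and Matn1 4 and 0. Ucma had 2 counts in each of these mice and 0 in the other 8, under the floor of 3. Snorc had 4 and 2 counts, with 0 to 2 elsewhere. Hapln1, Sox9 and Chad had their highest counts in KO 5 but were not raised in WT 3. Hapln1 had 20 and 14 counts, with 6 to 18 elsewhere, and Sox9 37 and 27, with 20 to 32 elsewhere. Chad had 1299 and 809 counts, with 644 to 1093 elsewhere. Matn3 followed neither mouse, with 2 counts in KO 5, 1 in WT 3 and 0 to 6 elsewhere. The summed CPM of the 10 cartilage markers was 110.5 to 144.3 in KO and 111.8 to 128 in WT mice, and most of it was Matn4 and Chad, which were at least 72.3 and 30.7 CPM in each mouse. No marker was at 0 in all mice. The part of cartilage in the tissue pieces in other results was not tested. With KO 5 and WT 3 both left out, 0 of 35 tested collagen genes were called and 26 of 35 had a fitted log2 fold change above 0.

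**Figure D4:**
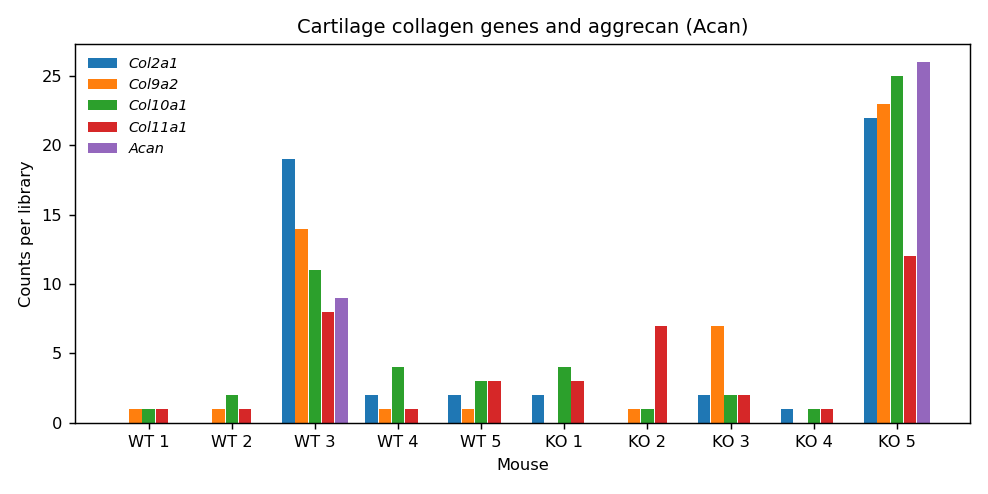
Counts per library (y axis, not scaled) of the cartilage collagen genes Col2a1, Col9a2, Col10a1 and Col11a1 and of the cartilage marker Acan in each mouse (x axis). KO 5 and WT 3 have the highest counts in all 5 genes, 8 to 26, while the other 8 mice have 0 to 7. In Col11a1, WT 3 with 8 counts is close to KO 2 with 7.

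The enzymes and partners of collagen were read out from lists by role. Of 22 genes that hydroxylate, fold and export collagen chains, all were tested, 0 passed by edgeR, 3 were higher and 2 lower at an unadjusted p under 0.05, and the median log2 fold change was 0. The lowest p in that list was that of Tmem38b, an ion channel of the endoplasmic reticulum, at 28.5 ± 1.53 CPM in KO and 31.7 ± 1.82 CPM in WT (SD, n = 5 each; fitted log2 ratio -0.17, SE 0.06, adjusted p 0.193 by edgeR). Of the 7 tested genes that trim propeptides and the 6 that crosslink, 0 passed and 0 stood at an unadjusted p under 0.05. Tll1, a procollagen protease, and Pxdn, which crosslinks collagen IV, had the lowest p in these lists, with log2 fold changes of 0.18 (SE 0.11, adjusted p 0.411 by edgeR) and 0.12 (SE 0.10, adjusted p 0.60 by edgeR).

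Of 14 tested fibril-associated protein genes 0 passed, with 3 higher and 1 lower at an unadjusted p under 0.05. Postn, which encodes the matrix protein periostin, averaged 304.7 ± 18.5 CPM in KO and 259.7 ± 21.9 CPM in WT (SD, n = 5 each; fitted log2 ratio 0.24, SE 0.07, adjusted p 0.144 by edgeR). Among 11 collagen receptor genes Itga2, an integrin chain that binds collagen, had the lowest p (fitted log2 ratio 0.31, SE 0.14, adjusted p 0.294 by edgeR). Of 12 tested degradation genes 0 passed and 2 were lower at an unadjusted p under 0.05, led by the protease inhibitor gene Timp1 (fitted log2 ratio -0.31, SE 0.11, adjusted p 0.195 by edgeR).

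The basement membrane partners had a median log2 fold change of 0.107 over 16 tested genes. Of these, 14 were above 0, against 49.3% of all tested genes, with 3 higher and 0 lower at an unadjusted p under 0.05. KO 5 was the highest mouse in most of them, though not in Lama1, Lama4, Lamb1, Lamc3 and Npnt. Hspg2 was at 327.6 CPM in KO 5 and 187 to 240.4 CPM in the other mice, and Agrn at 339.9 and 237.7 to 289.8 CPM. Fold changes of this list without KO 5 are not given here. The lowest p was that of Lama1, a laminin chain, at 1.97 ± 0.610 and 1.29 ± 0.292 CPM (SD, n = 5 each; fitted log2 ratio 0.65, SE 0.24, adjusted p 0.217 by edgeR). None passed by edgeR. Of 14 elastic fibre genes 0 passed and 0 stood at an unadjusted p under 0.05, and Ltbp2 came nearest (fitted log2 ratio 0.23, SE 0.12, adjusted p 0.352 by edgeR). Of 13 genes of TGF-beta signalling, a main inducer of collagen genes, 0 passed, and 4 were higher and 0 lower at an unadjusted p under 0.05. Skil, a feedback inhibitor of that pathway, measured 66.6 ± 5.23 and 55.5 ± 5.12 CPM (SD, n = 5 each; fitted log2 ratio 0.27, SE 0.07, adjusted p 0.138 by edgeR). Over all tested genes 8.92% were higher and 8.04% lower at an unadjusted p under 0.05.

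Between the sexes 1 collagen gene was called. The comparison is the sex term of the same model, with 3 males and 7 females, and 105 of 18024 genes (0.583%) passed it, 0.133% lower and the rest higher in males. Col14a1 (ENSMUSG00000022371; chromosome 15, 55307750 to 55520803), a FACIT collagen of fibril surfaces, fell in males. It measured 61.5, 48.7 and 56.0 CPM in the males KO 1, WT 2 and WT 3, and from 63.8 through a median of 72.4 to 77.1 CPM in the females. All males lay below all females. The log2 fold change of males over females was -0.35 (SE 0.07, adjusted p 0.029 by edgeR). The call was fragile: it was lost in 8 of the 10 fits that left out 1 mouse, with an edgeR adjusted p of 0.0549 without KO 5 and 0.114 without KO 1, the one KO male.

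At an unadjusted p under 0.05 stood 7 of the 35 genes (15.1% of all tested genes did), 5 lower and 2 higher in males. Lower in males at that p were 7.79% of all tested genes. Col15a1 gave -0.29 (SE 0.09, adjusted p 0.146 by edgeR) and Col23a1 0.16 (SE 0.06, adjusted p 0.211 by edgeR). Below 0 lay 22 of the 35, against 51.7% of all tested genes. The median over the 35 genes was -0.041, beside -0.006 for all tested genes.

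**Figure D5:**
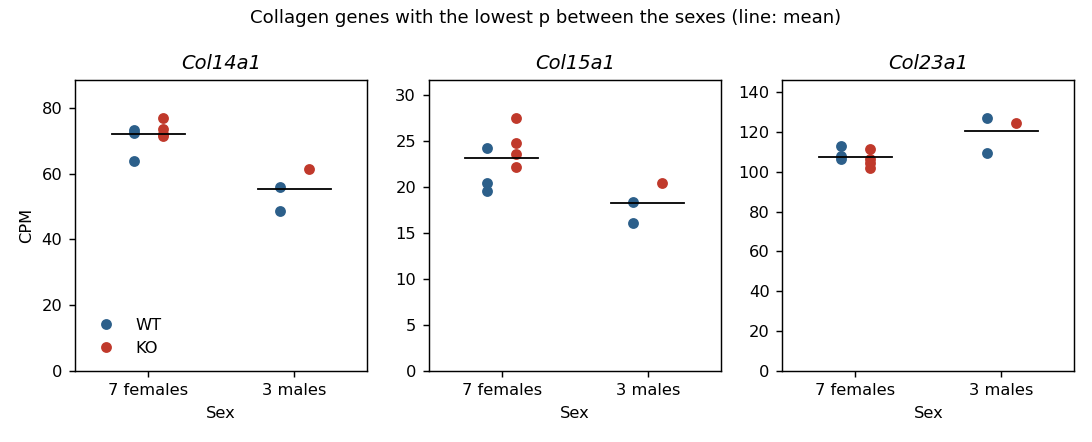
CPM (y axis, from 0) of Col14a1, Col15a1 and Col23a1 in 7 females and 3 males (x axis), with points coloured by genotype and lines at the mean. The males lie at 48.7 to 61.5 CPM for Col14a1, below all females, and overlap the females for the other genes.

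In the collagen pathway lists 3 genes were called between the sexes, and they were named after their values were seen. P4ha1, a subunit of the enzyme that hydroxylates proline in collagen chains, rose in males. It measured 155.3, 151.1 and 129.6 CPM in KO 1, WT 2 and WT 3, and 86.0 to 108.9 CPM in the females with a median of 93.9. Males over females, the fitted log2 ratio was 0.64 (SE 0.07, adjusted p 0.00268 by edgeR). Serpinh1, the collagen chaperone of the endoplasmic reticulum and a heat shock protein gene, rose as well, with 527.7, 579.4 and 466.1 CPM in KO 1, WT 2 and WT 3. Females reached 309.7 to 413.8 CPM. Males over females, the fitted log2 ratio was 0.54 (SE 0.09, adjusted p 0.0176 by edgeR).

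Mmp2, a secreted protease that cleaves collagen IV and denatured collagen, fell in males. It measured 101.5, 97.4 and 100.7 CPM in KO 1, WT 2 and WT 3, and females lay at 118.7 to 140 CPM (fitted log2 ratio of males over females -0.39, SE 0.06, adjusted p 0.0101 by edgeR). The Mmp2 call was lost without KO 5 and WT 3 together (adjusted p 0.0543 by edgeR). In these 3 genes no male overlapped a female, as in 4.81% of all tested genes. Without KO 5 all 3 still passed, with edgeR adjusted p of 0.00247 for P4ha1, 0.0339 for Serpinh1 and 0.0163 for Mmp2. Without KO 1, which leaves 2 WT males, none passed, with edgeR adjusted p of 0.103, 0.128 and 0.108 in the same order. Serpinh1 was also lost without WT 2 (adjusted p 0.0688 by edgeR).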

How the data were processed

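Estimated counts per gene, unscaled, were deposited as 1 table covering 47333 genes and 10 mice. The submitters' processing notes name STAR 2.6.0 and Salmon 0.9.1, with no role or order. The annotation and the use of strand are not given in the sources used here, and the libraries came from a stranded mRNA kit with single reads of 50 bases per the labels' protocols. A fraction beyond a tolerance of 0.01 was found in 30.1% of the values above 0, so values were rounded to whole numbers. All 10 columns belonged to a sample, with 0 left over. Symbols, positions and exon lengths came from GENCODE M21 by identifier (47281 matched). Of the 44 genes 35 were found in the RefSeq promoter table.

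Genes were kept by filterByExpr (minimum count 10, minimum total 15), which left 18024. The main test was edgeR 4.0.16 (R 4.3.3) with TMM scaling, a robust quasi-likelihood fit, genotype and sex as terms, and Benjamini-Hochberg adjustment over all tested genes. Calls were made at an adjusted p under 0.05. SE is the absolute log2 fold change over the square root of F. Correlations used log2 CPM (prior count 2) with 100000 permutations, or all of them for 7 mice. The script was tested on simulated counts with known changes, and the share of changes it recovered is not given here. Floors of 3 counts, 0.104 to 0.143 CPM, cover counting error only.

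The genes, lists and tests were chosen with earlier results of these data known. Named were collagen genes at an unadjusted p under 0.05, the 10 highest per kilobase, the highest of each class, collagen genes whose genotype ranges do not overlap, pathway genes at an adjusted p under 0.1, the lowest p of each pathway list, and collagen genes called between the sexes. Other names were chosen after their values were seen. Alternatives were DESeq2 1.42.0 size factors and Wald test, limma-voom (limma 3.58.1), no filter, a filter at mean CPM 1, a model without sex or without genotype, females alone, no robust fit, an adjusted p under 0.1, and each mouse left out. Leaving out KO 5 and WT 3 together and removing genotype means before correlation were added after seeing the data, as were all alternatives for the count of fold changes above 0 and for P4ha1, Serpinh1, Mmp2 and Col14a1 between the sexes.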

Additional observations from a re-analysis of the deposited data

Results flagged for a closer look

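Within each genotype, the highest or lowest mouse was set against the others by Dixon's ratio for each of the 44 collagen genes. Of 87 sets of 5 mice 10 stood out, where about 4.4 would by chance if values were normal and sets independent. Several flagged genes had few counts, and collagen genes varied together over the mice. An excess over chance can therefore not be read from these numbers.

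In KO 5, Col10a1 (0.988 CPM, other KO mice 0.0370 to 0.158), Col2a1 (0.869 CPM, others 0 to 0.0930) and Col9a1 (0.0790 CPM, others 0) were far above the other KO mice. Col9a1 amounted to 2 counts, under the floor of 3. In WT 3, Col2a1 (0.763 CPM, other WT mice 0 to 0.0869), Col9a2 (0.562 CPM, others 0.0345 to 0.0477), Col11a1 (0.321 CPM, others 0.0434 to 0.104) and Col9a3 (1.17 CPM, others 0.762 to 0.869) were far above the other WT mice.

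WT 2 was far below the other WT mice in Col1a1 (374.1 CPM, others 474 to 506), Col6a1 (302.6 CPM, others 355.1 to 357.9) and Col6a2 (220.4 CPM, others 270 to 277.8). This male had a total of 22145325 counts.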

How the results depend on the processing

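The count of 0 called collagen genes between KO and WT held in all 20 alternatives run, and all but Col3a1, Col6a1, Col7a1, Col13a1, Col23a1 and Col28a1 of the 18 named collagen genes kept the direction of their fold change in each. The 3 genes at an unadjusted p under 0.05 became 1 to 5 without single mice. The 4 called genes of the whole table became 50 with no filter, 346 in the DESeq2 Wald test, 2 by limma-voom, 57 with the threshold at 0.1, 2 without KO 5 and WT 3 together, and 2 to 18 without single mice. The 1 collagen gene called between the sexes became 0 with no genotype term, 0 without KO 5 and WT 3 together, and 0 to 1 without single mice. The 32 fold changes above 0 ran from 25 to 39 over all alternatives, the 39 being of 44 genes with no filter.

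Directions that turned belonged to fold changes near 0. Col13a1 gave -0.01 with no filter, 0 (just below) with no sex term and by limma-voom, -0.13 in females alone, and -0.13 to 0.06 without single mice. Col3a1 gave -0.03 in females alone, -0.01 without KO 5 and WT 3, and -0.04 to 0.10 without single mice. Col28a1 gave -0.02, -0.01 and -0.02 to 0.12 in the same settings. Col7a1 gave -0.03 without KO 5 and WT 3. Without single mice Col23a1 ran from -0.04 to 0.01 and Col6a1 from -0.01 to 0.04. The r of Col6a5 and Col6a6 became 0.28 without KO 2 and WT 5. Without genotype as a term, Col14a1 between the sexes had an edgeR adjusted p of 0.0647. The causes were not tested.

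No paired analysis was possible because mice were numbered by accession order, which links no KO mouse to a WT mouse. Depth limits the 9 genes left out, which had at most 25 counts in any mouse. With no filter Col22a1 took the place of Col12a1 among the 3 genes at an unadjusted p under 0.05.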

Other observations

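Of the cartilage markers, Matn4 measured 72.3 to 93.7 CPM and Chad 30.7 to 51.3 CPM over the 10 mice, whereas Acan had 0 counts in 8 of them. In those 8 lungs Matn4 and Chad were therefore detected where Acan was not, while KO 5 and WT 3 had counts of all 3 genes. Between the genotypes Matn4 gave a fitted log2 ratio of -0.01 (SE 0.08, adjusted p 0.975 by edgeR) and Chad 0.08 (SE 0.13, adjusted p 0.805 by edgeR). Chad, the collagen-binding protein chondroadherin, was highest in KO 5, at 51.3 CPM.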
